A study of Mus musculus with 4 samples.

Results

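The cytosolic heat-shock chaperones are the proteins that keep newly made and stress-damaged proteins folded in the cytosol and nucleus. They were represented here by 9 chaperone genes and by *Hsf1*, the transcription factor that drives them, chosen by a list of names, with no threshold on a measured value. The list was drawn up with earlier results of these data known. All 10 were in the table, out of 20197 genes. They were compared between 4T1 cells of high and low mitochondrial membrane potential (MMP). 4T1 is a mouse mammary carcinoma line that metastasizes to the lung. The cells carried no genetic change or drug treatment that differed between groups. All had been stained with 20 nM MitoSpy Red, a dye that accumulates in mitochondria with a high membrane potential, and then trypsinized and sorted. The top 5% of cells by staining made up the high MMP group and the bottom 5% the low MMP group, with 2 samples each, about 100000 cells per sample and 200 ng of RNA per library. Both groups came from a single cultured line, where the labels do not say whether the samples of a group were separate cultures, and p-values measure the spread between these samples. The study's supplement counts the replicates of this comparison as independent experiments or tumors, without saying which sample numbers belong to which. Values are scaled reads, in which every library adds up to 20000000. A difference is the high MMP mean minus the low MMP mean of log2(value + 1), a scale on which changes of scarce genes come out too small.

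In unstressed cells HSF1 is held inactive by chaperones. When misfolded proteins draw the chaperones away, HSF1 trimerizes and binds heat-shock elements, which are alternating inverted repeats of the unit GAA, and raises transcription of its targets. Cytosolic Hsp70 and Hsp90 each exist in an inducible and a constitutive form, so the ratio of the forms is often read as a sign of HSF1 activity. J-domain proteins of the Hsp40 family deliver clients to Hsp70 and start its ATP cycle, and Hsp110 proteins exchange its nucleotide. Tumor cells often keep the system active without heat.

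The depth was 22591970 to 26395015 reads per library, recovered from the steps of the scaled values. All 10 mammary epithelial markers were in the table with a mean of at least 10, and of 10 leukocyte markers 3 were in the table, with a summed value of 8.72 to 17.7 per library. Of 10 stromal and endothelial markers 6 were in the table, and *Pdgfra* alone had a mean of at least 10. It had 319 and 363 in high MMP and 536 and 589 in low MMP, without overlap. The difference was -0.72 (SE 0.11, limma adjusted p = 0.472), and DESeq2 called it. No gene passed an adjusted p of 0.05 in limma (0 of 20197, 0%), where 2011 genes (9.96%) had an unadjusted p under 0.05. edgeR's quasi-likelihood test on the recovered reads called 0 of 13329 genes (0%), and DESeq2 called 118 of 11974 (0.985%). These are bulk samples, in which fewer cells of a type and less RNA per cell cannot be told apart.

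The promoter windows that carry the heat-shock elements are shown because such elements are the sites that HSF1 binds. RefSeq (GRCm38.p6) windows, from 250 bases before to 50 after a start site, were found for 6 of the 10 genes. None was found for *Hspa8*, *Hsp90aa1*, *Hsp90ab1* and *Hsf1*. The search covered the 2-unit words GAANNTTC and TTCNNGAA, each of which reads the same on both strands, and the 3-unit words GAANNTTCNNGAA and TTCNNGAANNTTC, which contain them and are the reverse complement of each other. Of all 32851 windows, 15.1% held a 2-unit word and 0.603% a 3-unit word. The 6 genes had 10 windows, some of which overlap, and 6 of these windows held a 2-unit word and 2 a 3-unit word. Counted by gene, which is not the same measure as the share of windows, 5 of the 6 had a 2-unit word in at least 1 window. *Hsph1* was the gene with a 3-unit word. The stretches below run 5′ to 3′ on the strand of the gene, with the matched letters in capitals.
Hspa1a, chr17:34972243-34972270, minus strand: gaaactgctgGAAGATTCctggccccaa
Hspa1b, chr17:34959325-34959352, minus strand: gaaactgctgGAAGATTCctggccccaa
Hsph1 upstream, chr5:149636352-149636379, minus strand: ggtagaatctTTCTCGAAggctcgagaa
Hsph1 3-unit, chr5:149636280-149636308, minus strand: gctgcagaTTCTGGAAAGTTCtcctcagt
Hspb1, chr5:135887792-135887839, plus strand: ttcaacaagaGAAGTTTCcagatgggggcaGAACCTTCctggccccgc
Dnaja1, chr4:40722334-40722361, plus strand: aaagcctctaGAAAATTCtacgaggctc

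The match in *Hspa1a* and *Hspa1b* began 104 bases before the start site in both genes, those in *Hspb1* 117 and 97 bases before it, and that in *Dnaja1* 124 bases before the first of its 3 annotated starts. The 3-unit word of *Hsph1* lay after its start sites. Neither window of *Dnajb1* held these letters, which says only that they are not in the 300 bases searched. The upstream sequences of *Hspa1a* and *Hspa1b* are shown whole because both genes encode the inducible Hsp70 and sit side by side on chromosome 17. They differed at 3 of 250 positions, given in capitals.
Hspa1a, chr17:34972157-34972406, minus strand: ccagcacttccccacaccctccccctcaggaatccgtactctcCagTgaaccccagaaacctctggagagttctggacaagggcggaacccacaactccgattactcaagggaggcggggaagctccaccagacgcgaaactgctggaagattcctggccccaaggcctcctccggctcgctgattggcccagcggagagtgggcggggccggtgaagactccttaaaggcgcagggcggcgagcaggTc
Hspa1b, chr17:34959239-34959488, minus strand: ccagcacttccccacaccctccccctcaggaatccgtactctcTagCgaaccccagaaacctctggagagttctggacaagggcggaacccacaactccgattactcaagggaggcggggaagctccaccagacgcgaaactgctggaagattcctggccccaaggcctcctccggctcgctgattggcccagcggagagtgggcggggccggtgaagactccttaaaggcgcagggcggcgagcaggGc
Counted from the 5′ end of these sequences, the substitutions from *Hspa1a* to *Hspa1b* were C44T, T47C and T249G. None fell in the matched heat-shock word.

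The genes spanned a wide range of levels, led by the constitutive Hsp90 and Hsp70. Per kb of annotated exon, *Hsp90ab1*, the constitutive cytosolic Hsp90, had the highest level, 36448 ± 3031 scaled reads (SD, n = 4 libraries). *Hspa8*, the constitutive Hsc70, followed at 10222 ± 755 per kb and *Hsp90aa1*, the inducible Hsp90, at 8675 ± 1084 per kb, and the ranges of these genes over the libraries overlapped. *Hsph1* (768 ± 92.2 per kb) and *Dnaja1* (524 ± 32.5 per kb) came next, without overlap between them. *Dnajb1* (271 ± 18.3 per kb), *Hspa1b* (207 ± 59.0 per kb) and *Hsf1* (179 ± 7.57 per kb) were neighbours in this order whose ranges overlapped, *Dnajb1* with *Hspa1b* and *Hspa1b* with *Hsf1*. *Hspb1* had 75.1 ± 20.0 per kb and *Hspa1a* was close to 0. The exon length is the union over all annotated transcripts of a gene. It was 8629 bases for *Dnaja1*, 7266 for *Hsph1* and 7099 for *Hsf1*, against 2803 for *Hspa1b*. Where the transcripts in the cells are shorter than this union, the level per kb is too low, so the order can depend on the annotation. Together the 10 genes took 1.11% of the reads of high MMP 1 (95% Wilson interval 1.10% to 1.11%), 0.900% of high MMP 2 (0.896% to 0.903%), 0.988% of low MMP 1 (0.984% to 0.992%) and 1.01% of low MMP 2 (1.01% to 1.02%). The groups overlapped in this share, and these intervals cover counting error only.

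**Figure D1:**
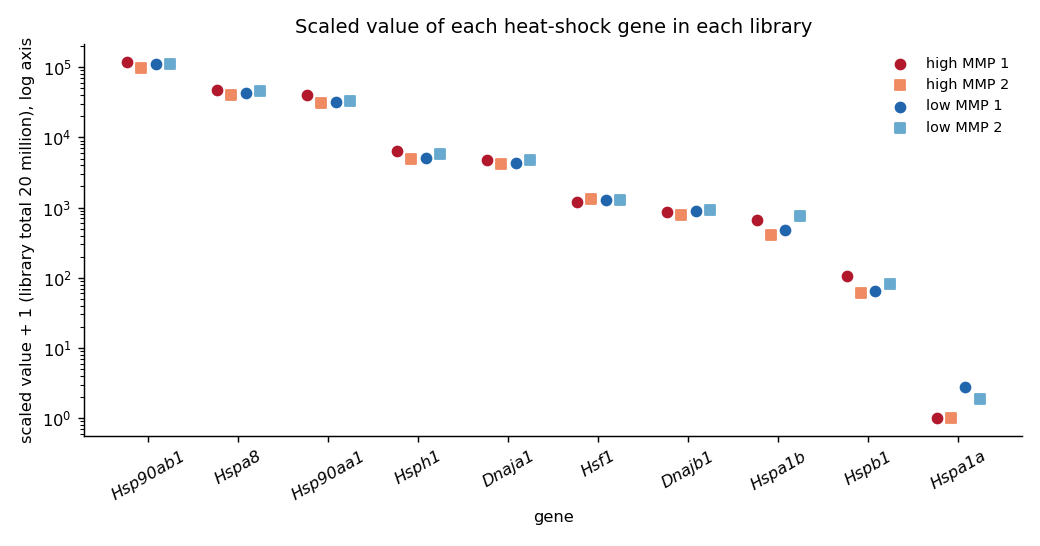
Scaled value plus 1 of each gene (log axis) in each of the 4 libraries, 2 of high MMP (red tones) and 2 of low MMP cells (blue tones), ordered by mean value and not corrected for gene length. *Hsp90ab1* lies at 97510 to 119680 and *Hspa1a* at 0 to 1.74, and the libraries of the groups are interleaved for 8 of the 10 genes.

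Among the Hsp70 genes, the inducible pair was carried by *Hspa1b* (ENSMUSG00000090877, chr17:34956436-34959238, minus strand). Its scaled values were 664 and 407 in high MMP 1 and 2, and 486 and 770 in low MMP 1 and 2. The highest and the lowest library thus belonged to different groups, 1.89-fold apart, and the groups overlapped. The difference was -0.23 (SE 0.34, 95% interval -1.17 to 0.70, limma adjusted p = 0.909). *Hspa1a* (ENSMUSG00000091971, chr17:34969190-34972156, minus strand) was all but absent from the counts, with 0 and 0 reads in high MMP and 2 and 1 reads in low MMP, under a floor of 3 reads per library. No fold is given for it, since these libraries are too shallow to detect a difference between such counts (limma adjusted p = 0.472). The transcripts of these genes are nearly the same in part: 52.7% of the 75-base stretches of *Hspa1a* also occur in *Hspa1b*, and 47.3% do not. How reads that match both genes were assigned is not given in the sources used here, so the split of these shared reads is uncertain. If they were left out, the level of *Hspa1b* is too low.

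*Hspa8* (ENSMUSG00000015656, chr9:40800984-40810087, plus strand), which folds and carries client proteins in all cells, had scaled values of 47172 and 39815 in high MMP and 43083 and 45787 in low MMP. Both low MMP libraries lay between the high MMP libraries. The difference was -0.04 (SE 0.17, 95% interval -0.50 to 0.43, limma adjusted p = 0.994). The sign of so small a difference turned positive with median-of-ratios rescaling, as it did for *Dnaja1*, *Hsp90ab1* and *Hsf1*, and no direction is read for these 4 genes. *Hsph1* (ENSMUSG00000029657, chr5:149614287-149636376, minus strand), the inducible Hsp110 that releases ADP from Hsp70, had 6463 and 4967 in high MMP and 5164 and 5720 in low MMP. Here too the high MMP libraries were the highest and the lowest of the 4. Its difference was 0.06 (SE 0.16, 95% interval -0.38 to 0.50, limma adjusted p = 0.967).

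Of the J-domain proteins, *Dnajb1* separated the groups and *Dnaja1* did not. *Dnajb1* (ENSMUSG00000005483, chr8:83608193-83612653, plus strand), the strongly inducible Hsp40 that also helps to switch HSF1 off, had 864 and 792 in high MMP and 891 and 932 in low MMP. Both low MMP libraries were above both high MMP libraries, and it was the only one of the 9 genes averaging 10 or more scaled reads whose groups did not overlap. Over all 12902 genes with such a mean, 23.7% were higher in low MMP without overlap and 14.3% higher in high MMP, so 1 of 9 is no more than the background. The difference was -0.14 (SE 0.09, 95% interval -0.38 to 0.10, limma adjusted p = 0.715), and it was -0.08 without high MMP 2. *Dnaja1* (ENSMUSG00000028410, chr4:40722150-40737149, plus strand), the less inducible farnesylated Hsp40, had 4799 and 4231 in high MMP and 4342 and 4729 in low MMP, where the high MMP libraries again enclosed the others. Its difference was -0.01 (SE 0.11, 95% interval -0.30 to 0.29, limma adjusted p = 0.994).

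Of the Hsp90 genes, *Hsp90aa1* (ENSMUSG00000021270, chr12:110690605-110702728, minus strand) had 40330 and 30818 in high MMP and 32124 and 33131 in low MMP. High MMP 1 stood above the other libraries, and high MMP 2 was the lowest. The difference was 0.11 (SE 0.19, 95% interval -0.40 to 0.62, limma adjusted p = 0.928). *Hsp90ab1* (ENSMUSG00000023944, chr17:45567775-45573271, minus strand) had 119680 and 97510 in high MMP and 110144 and 109900 in low MMP. The low MMP libraries were nearly equal and lay inside the range of the high MMP libraries, and the difference was -0.03 (SE 0.23, 95% interval -0.65 to 0.59, limma adjusted p = 0.994). Of the 75-base stretches of *Hsp90aa1* transcripts, 42.8% also occur in another annotated gene, against 0.537% for *Hsp90ab1*, 32.8% for *Hspa8* and 10.4% for *Dnaja1*, so the levels of *Hsp90aa1* and *Hspa8* could be split with such copies.

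The small heat-shock protein *Hspb1* (ENSMUSG00000004951, chr5:135887919-135889563, plus strand), an ATP-independent holdase, was scarce, with 72 to 139 reads per library. Its scaled values were 105 and 60.3 in high MMP and 63.6 and 80.6 in low MMP. The groups overlapped and the libraries spanned 1.75-fold. The difference was 0.15 (SE 0.33, 95% interval -0.76 to 1.06, limma adjusted p = 0.955), and 46.4% of its 75-base stretches occur in a pseudogene, *Hsp25-ps1*. *Hsf1* itself (ENSMUSG00000022556, chr15:76477422-76501913, plus strand) had 1201 and 1332 in high MMP and 1275 and 1269 in low MMP. It was the steadiest of the set, with 1.11-fold between its highest and lowest library, and its difference was -0.01 (SE 0.09, 95% interval -0.25 to 0.23, limma adjusted p = 0.994). Its mRNA level does not report its activity, which is set by trimerization and binding.

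**Figure D2:**
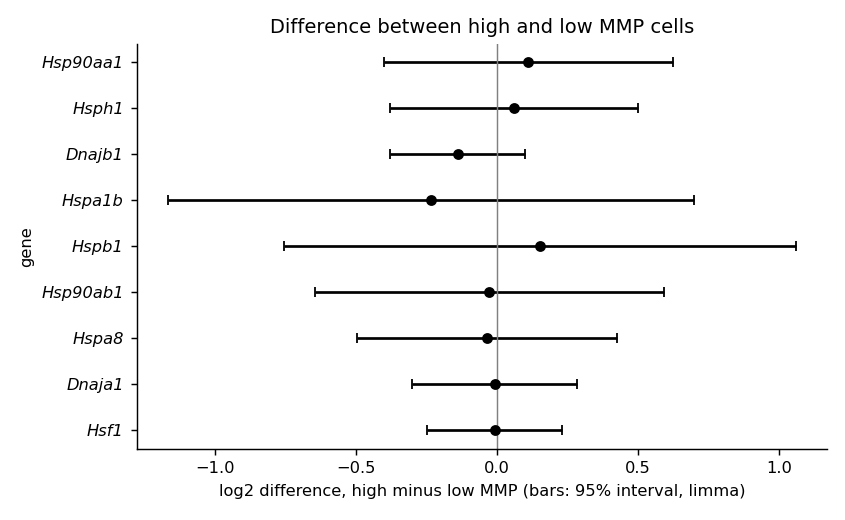
Difference between high and low MMP (log2 scale, points) with the 95% interval of limma (bars) for the 9 genes that average 10 or more scaled reads. Inducible genes come first, then constitutive genes, with the less inducible *Dnaja1* placed among them, and *Hsf1*. The points lie between -0.23 and 0.15, all intervals include 0, and they are widest for *Hspa1b* and *Hspb1*.

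None of the 10 genes passed the adjusted threshold in limma. Nor did any of the 9 others than *Hspa1a*, which is too low for their filters, in edgeR or DESeq2. Only *Hspa1a*, 1 of 10, had an unadjusted limma p under 0.05, against 9.96% of all 20197 genes. That p rests on 0 and 0 reads in high MMP against 2 and 1 in low MMP. Among the 9 genes other than *Hspa1a*, the intervals were narrowest for *Dnajb1* and *Hsf1* and widest for *Hspa1b* and *Hspb1*. They leave room for differences of the sizes given.

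The spread was mostly between the high MMP libraries, counted after their values were seen. High MMP 2 was the lowest of the 4 libraries in 8 of these 9 genes, *Hsf1* being the exception, against 29.3% of all genes at such levels. High MMP 1 was the highest and high MMP 2 the lowest in 6 of them, against 13.6% of all such genes. In 8 of the 9, *Dnajb1* being the exception, the high MMP libraries were further apart than the group means, which also held for 65.5% of all such genes. High MMP 2 was also the lowest library in 54 of the 98 genes of the wider chaperone network described below (55.1%). The same held for 6 of the 10 mammary epithelial markers, so this trait is not particular to the 9 genes. Chaperone genes share regulation, so the 9 are not independent.

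**Figure D3:**
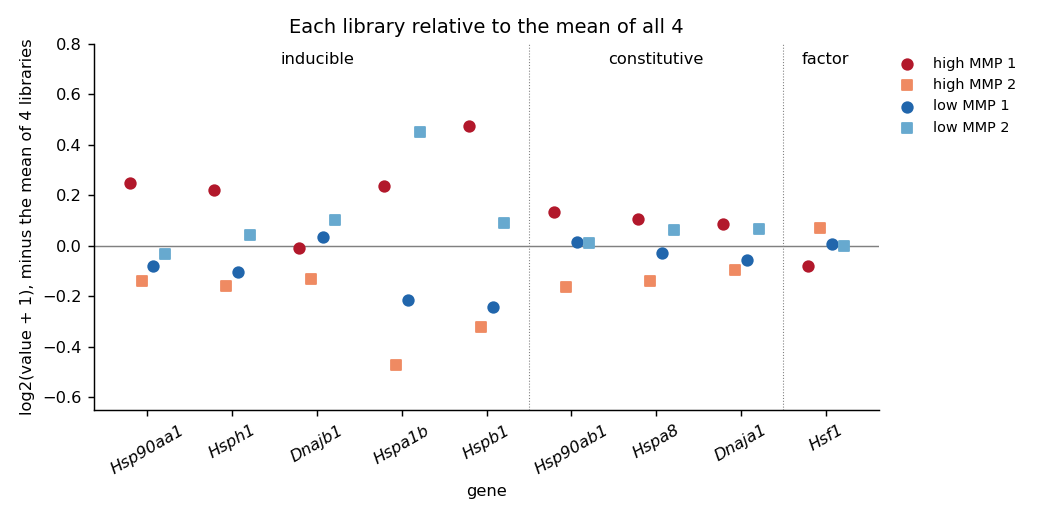
Value of each library on the log2(value + 1) scale relative to the mean of the 4 libraries, for the 9 genes that average 10 or more scaled reads. They are grouped as inducible, constitutive (with the less inducible *Dnaja1*) and factor. High MMP 2 lies below the others in every gene but *Hsf1*, and the spread is widest in *Hspa1b* and *Hspb1*.

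To compare inducible with constitutive forms, the mean of these relative values was taken per library, without a test. For the 5 inducible genes other than *Hspa1a* it was 0.23 in high MMP 1, -0.24 in high MMP 2, -0.12 in low MMP 1 and 0.13 in low MMP 2. For the 3 genes taken as constitutive, which include the less inducible *Dnaja1*, it was 0.11, -0.13, -0.02 and 0.05 in the same order. The means of the sets had the same sign in each library and that of the inducible genes was further from 0, and neither set separated the groups. Single genes departed from their set's mean, and *Hspa1b* and *Hspb1* had the widest spread.

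The 3 ratios were of inducible to constitutive forms for Hsp70 and Hsp90, and of the more to the less inducible gene for Hsp40. Taken per kb within each library, they cancel the scaling of a library. The size of a percentage depends on the exon lengths used, such as 3204 bases for *Dnajb1* and 8629 for *Dnaja1*. It is therefore not a measured ratio of transcripts, while the log2 differences between groups do not depend on these lengths. The ratio of *Hspa1a* plus *Hspa1b* to *Hspa8* was 2.16% and 1.57% in high MMP and 1.74% and 2.58% in low MMP. The groups overlapped, and the log2 difference was -0.20, against SDs of 0.33 and 0.41 within the groups (exact permutation test, two-sided, p = 0.667, n = 2 against 2). Without high MMP 2 this difference was 0.03, and without low MMP 2 it was 0.08. The ratio of *Hsp90aa1* to *Hsp90ab1* was 25.7% and 24.1% in high MMP and 22.3% and 23.0% in low MMP. Both high MMP libraries were above both low MMP libraries, by 0.14 on the log2 scale, with SDs of 0.07 and 0.03 within the groups (exact permutation test, two-sided, p = 0.333). After quantile normalization this difference fell to 0.0005 (exact permutation p = 1). The ratio of *Dnajb1* to *Dnaja1* went the other way, with 48.5% and 50.4% in high MMP and 55.3% and 53.1% in low MMP. Its log2 difference was -0.13, with SDs of 0.04 in each group and no overlap (exact permutation test, two-sided, p = 0.333). For the Hsp90 and Hsp40 ratios the difference was larger than the SDs, but 0.333 is the smallest p that 2 against 2 samples allow, and adjusted over the 3 ratios by the Benjamini-Hochberg method it is 0.5 for both. On the deposited scale the inducible form was relatively higher in high MMP for Hsp90, and the more inducible gene was relatively lower for Hsp40.

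**Figure D4:**
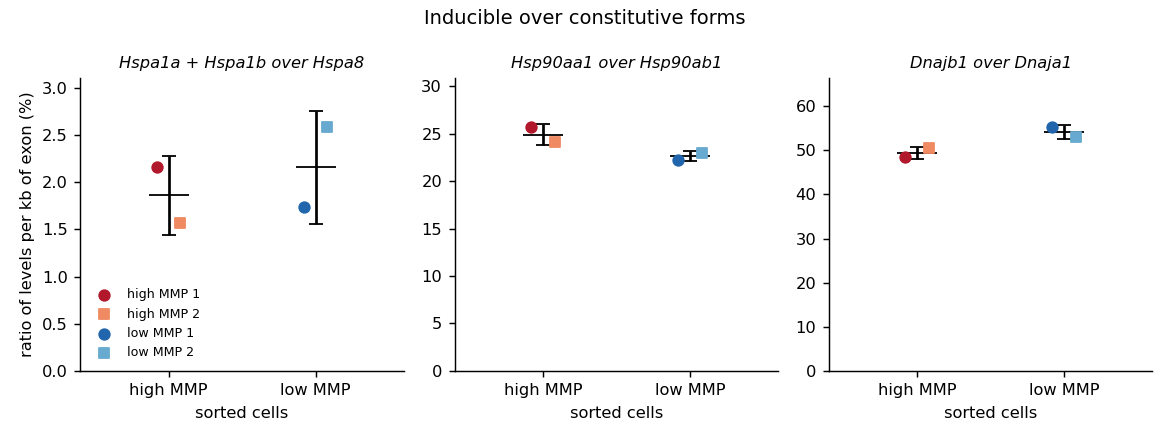
Ratio per kb of exon, in percent, of the inducible to the constitutive form for Hsp70 and Hsp90. For Hsp40 it is the ratio of *Dnajb1* to the less inducible *Dnaja1*. The size of a percentage depends on the annotated exon lengths. Points are the 4 libraries, with the group mean and SD (bars, n = 2). The Hsp70 ratio overlaps between groups, the Hsp90 ratio on the deposited scale, though not after quantile normalization, is higher in both high MMP libraries (25.7% and 24.1% against 22.3% and 23.0%), and the Hsp40 ratio is lower in both (48.5% and 50.4% against 55.3% and 53.1%).

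The rest of the chaperone network was read from 7 lists, which hold 105 genes of the table, 98 of them averaging 10 or more. None of the 98 passed the adjusted threshold in limma, in DESeq2 or in edgeR without a block. With crossed replicate numbers as a block, a fit chosen after seeing the data, edgeR called 2 of the 98, *Chac1* and *Dnajb9*, against 4.66% of all genes it tested. At an unadjusted limma p under 0.05, 2 were higher and 2 lower in high MMP, 4.08% of the 98, against 7.63% of all genes at such levels. The 2 higher ones were *Hspa4l* and *Pdcl*, and the 2 lower ones were *Tdp2* and *Sdf2l1*, an endoplasmic reticulum co-chaperone named after its values were seen (-0.33, SE 0.12). The median difference was 0.01 over the 98 genes and -0.03 over all 12902. The lists share some genes.

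Of 25 other HSF1-responsive genes, limma called none, and the median difference was 0.04. At its ends, *Chac1*, a glutathione-degrading enzyme that is best known as a target of the integrated stress response, had 1942 and 1609 in high MMP against 1459 and 1351 in low MMP. Its groups did not overlap, with a difference of 0.33 (SE 0.12, limma adjusted p = 0.505). *Rgs2*, a regulator of G-protein signalling, had 160 and 36.0 in high MMP and 67.1 and 143 in low MMP. Its highest and lowest libraries, 4.44-fold apart, were both high MMP, and the difference of -0.36 had an SE of 0.83.

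The Hsp70 co-chaperones and relatives (27 genes averaging 10 or more) had a median difference of -0.03. *Hspa4l*, an Hsp110-family relative of *Hsph1*, was the gene with the largest positive difference. It had 2614 and 2720 in high MMP and 2286 and 2064 in low MMP, without overlap. The difference was 0.30 (SE 0.09, limma adjusted p = 0.472). At the other end *Dnajb4*, an Hsp40 close to *Dnajb1*, had a difference of -0.22 (SE 0.20), and its groups overlapped. Among the 25 Hsp90 co-chaperones the median difference was 0.01, and the ends were *Chordc1*, which binds the Hsp90 ATPase domain, at 0.16 (SE 0.08), and *Tsc1*, better known as an inhibitor of mTORC1 signalling, at -0.21 (SE 0.10).

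Of 9 small heat-shock proteins, 7 were in the table and 5 had a mean of at least 10, with a median difference of 0.05. *Cryab*, the alpha-B crystallin, had 285 and 207 in high MMP and 199 and 240 in low MMP, which overlap, and *Hspb2* had a difference of -0.09 (SE 0.48). *Hsf2*, the second heat-shock factor, had 882 and 869 in high MMP and 907 and 940 in low MMP. Its groups did not overlap, but its difference was only -0.08 (SE 0.08, limma adjusted p = 0.842). *Hsf4* had 0 to 4 reads per library, which is too few for a comparison. In the list of factors and regulators *Hsbp1*, which binds the HSF1 trimer, differed by 0.21 (SE 0.18). *Tdp2*, a DNA repair enzyme rather than a known chaperone regulator, had 836 and 813 in high MMP and 976 and 1049 in low MMP, a difference of -0.30 (SE 0.08, limma adjusted p = 0.472).

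The TRiC chaperonin and prefoldin, which fold actin and tubulin, had differences from -0.01 to 0.27 over 16 genes with a median of 0.04. High MMP 2 was the lowest library in 11 of them (68.8%), against 29.3% of all genes at such levels. *Pdcl*, which works with TRiC on G-protein subunits, was at the top with 935 and 859 in high MMP and 714 and 769 in low MMP, a difference of 0.27 (SE 0.09, limma adjusted p = 0.472), and *Cct2*, a TRiC subunit, at the bottom with -0.01 (SE 0.12). Of the paralogs in the endoplasmic reticulum and mitochondria, 3 of 12 (25%) had high MMP 2 as the lowest library, and the median difference of the 12 was -0.07. *Dnajb9*, an endoplasmic reticulum J-domain protein induced by the unfolded protein response, had 277 and 208 in high MMP and 315 and 413 in low MMP. Its groups did not overlap, and its difference was -0.58 (SE 0.22, limma adjusted p = 0.505). *Dnaja3*, a mitochondrial J-domain protein, differed by 0.09 (SE 0.09). The endoplasmic reticulum forms of Hsp70 and Hsp90, named after their values were seen, were both lower in high MMP without overlap and not past the test. *Hspa5* (BiP) had 23254 and 32652 in high MMP against 32907 and 36635 in low MMP (-0.33, SE 0.22, limma adjusted p = 0.732). *Hsp90b1* (GRP94) had 12446 and 13632 against 15169 and 17426 (-0.32, SE 0.13, limma adjusted p = 0.549). Other endoplasmic reticulum genes of the list overlapped between groups: *Hyou1* (-0.25, SE 0.28), *Dnajc3* (-0.07, SE 0.10) and *Dnajb11* (0.05, SE 0.11).

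Other programs moved with the libraries. The summed mammary epithelial markers were 74721 in high MMP 1, 55872 in high MMP 2, 62213 in low MMP 1 and 70944 in low MMP 2, the same order as the inducible chaperones. The 20 immediate-early genes, which growth factors and stress switch on quickly, had a median relative value of 0.39 in high MMP 1 and 0.38 in low MMP 2, against -0.22 in high MMP 2 and -0.45 in low MMP 1. *Fos* was at 2419 and 521 in high MMP and at 326 and 2357 in low MMP, so the libraries with the higher *Hspa1b* values were those with the higher *Fos* values. Between groups, the immediate-early genes also had a median difference of 0.33, with 14 of the 20 higher and 6 lower in high MMP. At an unadjusted limma p under 0.05, 2 of them were higher. The 53 G2/M genes followed the groups, with a median difference of 0.32, 49 higher and 4 lower in high MMP. Of these 53, 29 were higher at an unadjusted limma p under 0.05. Over all 12902 genes averaging 10 or more, 5403 were higher and 7499 lower, and 369 were higher at that p. DESeq2 called 18 of the 53 and none of the immediate-early genes, out of 118 called in all. With the crossed block, chosen after seeing the data, edgeR called 24 of the 53 and 10 of the 20, out of 618 at such levels. The part of these programs in the chaperone values was not tested.

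**Figure D5:**
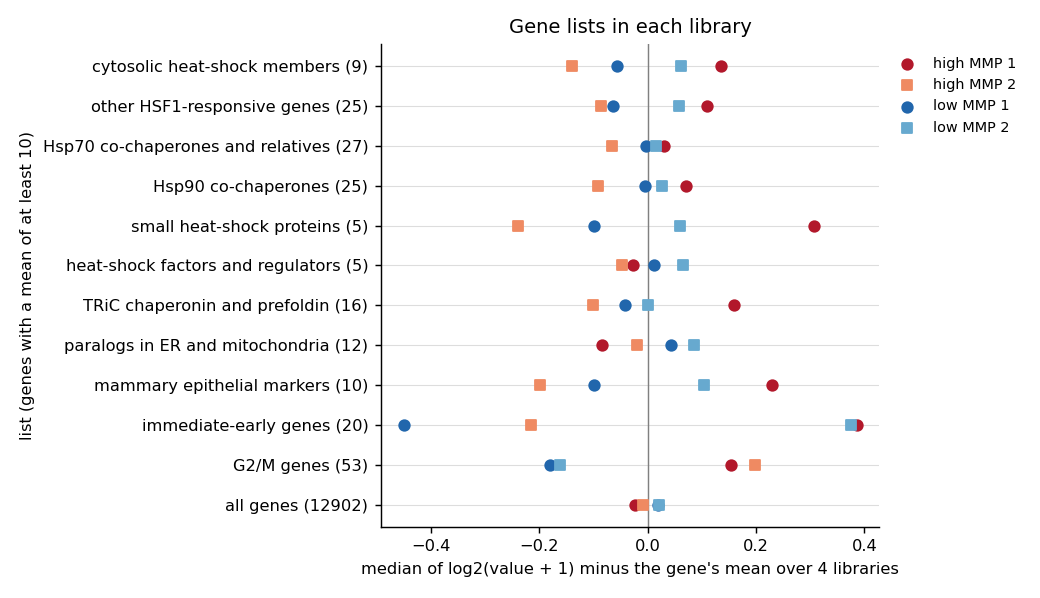
Median over the genes of each list (in brackets, genes averaging 10 or more) of the log2(value + 1) relative to the gene's mean of 4 libraries, with 1 point per library. The cytosolic members run from -0.14 in high MMP 2 to 0.13 in high MMP 1, the immediate-early genes separate high MMP 1 and low MMP 2 from the others, and the G2/M genes separate the groups.

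The genes whose pattern over the 4 libraries was closest to that of *Hspa1a* plus *Hspa1b* were *Hmgcs1*, *Dusp18*, *Jund*, *Plekhf1* and *Plet1*, at Euclidean distances of 0.059, 0.075, 0.084, 0.088 and 0.111 between mean-centred log2 profiles, out of 9991 genes averaging 100 or more. The likeness rests on these 4 libraries alone. *Hmgcs1* had 3768 and 2264 in high MMP and 2712 and 4507 in low MMP, the order of *Hspa1b*.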

How the data were processed

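RNA of 4 samples, 2 of high and 2 of low MMP 4T1 cells, was analysed, with groups taken from the sample titles. The authors aligned reads to mouse GRCm38 (mm10) with STAR and counted them per gene. HTSeq is also in the submitters' processing notes, and the versions, annotation and handling of reads matching several genes are not given in the sources used here. The deposited values were a signal per gene, counts divided by library size so that each library adds up to 20000000, for genes detected in at least 2 of 4 samples. All values (100%) were whole multiples of 1 step per library within 0.1 read (0.758 to 0.885 units), which gave the reads back.

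Identifiers were matched to GENCODE M21 on GRCm38 (19993 of 20197). Levels per kb used the union of annotated exons. A pseudocount of 1 was added before the log2, and limma 3.58.1 (lmFit, eBayes with trend, R 4.3.3) compared the groups with Benjamini-Hochberg adjustment over all 20197 genes, threshold 0.05. Ratios used an exact permutation test over samples. Alternatives were other pseudocounts, filters and normalizations, a replicate block, leaving out each sample, and edgeR 4.0.16 and DESeq2 1.42.0 on the recovered reads. The fits were tested on simulated data. Named genes were the 10 members, all heat-shock factors, the gene at each end of every list (scaled mean 10 or more) and the 5 genes most like *Hspa1a* plus *Hspa1b*. Marker and program genes were added. Members and lists were chosen with earlier results of these data known.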

Additional observations from a re-analysis of the deposited data

How the results depend on the processing

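Over 18 alternatives, none of the 10 genes passed the adjusted threshold (175 values, 39 of them with the sign turned), and the lowest adjusted p of a member was 0.272 (*Hspa1a*). limma and edgeR without a block called 0 genes. With the replicate block edgeR called 52 genes and limma 0, and DESeq2 called 118. The main fit did not pair samples by number, since the study's methods name no block for this comparison, and the replicate block was an alternative. Same-numbered samples deviated in opposite directions (r = -0.42 over 12902 genes), and whether the numbers are crossed is not known. With the crossed numbers as block, chosen after seeing the data, edgeR called 621 genes, 2 of the 98 network genes and no member, and limma called 0. The replicate block left the 3 ratios at -0.20, 0.14 and -0.13. Turned signs, in the order *Hspa8*, *Dnaja1*, *Hsp90ab1* and *Hsf1*, were 0.0060, 0.033, 0.015 and 0.033 with median-of-ratios rescaling, 0.0072, 0.031, 0.019 and 0.031 in edgeR with no block, 0.0022, 0.029, 0.011 and 0.029 with the replicate block, 0.0069, 0.031, 0.019 and 0.031 with no filter, 0.0022, 0.029, 0.011 and 0.030 with the crossed block, and 0.011, 0.035, 0.023 and 0.035 in DESeq2. With quantile normalization *Hsp90ab1* was 0.16 and *Hsf1* 0.019. The median-of-ratios factors were 0.982 and 0.994 in high MMP and 1.01 and 1.02 in low MMP, and dividing by them raised the difference of every member. The cause of the turned signs in the other fits was not tested. Leaving out 1 library at a time gave ranges of -0.59 to 0.12 for *Hspa1b*, -0.16 to 0.087 for *Hspa8*, -0.13 to 0.25 for *Hsph1*, -0.20 to -0.08 for *Dnajb1*, -0.10 to 0.083 for *Dnaja1*, -0.082 to 0.31 for *Hsp90aa1*, -0.17 to 0.12 for *Hsp90ab1*, -0.25 to 0.55 for *Hspb1* and -0.083 to 0.067 for *Hsf1*. The Hsp70 ratio ranged from -0.49 to 0.084, the Hsp90 ratio from 0.09 to 0.18 and the Hsp40 ratio from -0.16 to -0.10, so the last pair kept its sign when 1 library was left out. Quantile normalization moved these ratios to -0.08, 0.0005 and -0.09, which ends the separation for Hsp90. With 2 libraries a group, an effect smaller than the intervals given cannot be seen.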
